A study of Mus musculus with 9 samples.

Results

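The genes described here are 10 members of the prostaglandin and leukotriene pathway, Pla2g4a, Ptgs1, Ptgs2, Hpgds, Tbxas1, Ptges3, Ptger4, Alox5, Alox5ap and Ltc4s. They were chosen by symbol, with earlier results of these data known, from a table of 15434 genes, and all 10 were in it. RNA was sequenced from macrophages that had been sorted out of 3 organs of C57BL/6J mice, namely testis, epididymis (the duct in which sperm mature) and brain, in 9 libraries, 3 for each. By the protocols, the cells were sorted as live, positive for CD45, CD11b and F4/80 and negative for Ly6C and CD11c, and were neither cultured nor treated, and no group carried a transgene or a mutation according to the labels. The brain libraries are titled microglia, the resident macrophages of the brain. Each organ carries its own mouse number in the labels, shared by its 3 libraries, and nothing states that libraries are of separate animals. Effects of organ and of mouse number cannot be told apart, and the p-values here reflect spread among libraries that may be technical. One step of the protocols can be read as mixing suspensions of testis and epididymis, which could not be checked here.

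Prostanoids and leukotrienes are lipid messengers made from arachidonic acid. Cytosolic phospholipase A2 frees the acid from membranes, after which the cyclooxygenases turn it into prostaglandin H2, and terminal synthases turn that into prostaglandin D2, prostaglandin E2 or thromboxane A2. In the other arm, 5-lipoxygenase, helped by its activating protein FLAP, makes leukotriene A4, which leukotriene C4 synthase joins to glutathione and leukotriene A4 hydrolase turns into leukotriene B4. Macrophages are known for making several of these lipids, and microglia in particular for the cyclooxygenase 1 route.

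Libraries held 2727092 to 4458688 reads assigned to genes, and values below are normalised reads, in which 1 read is worth 0.808 to 1.11. On the third principal component, with 14.18% of the variance, testis replicate 1 (99.13) and epididymis replicate 3 (97.16) lay away from their organs' other libraries. On the first (25.15%), testis replicate 1 was at 155.3, against 73.25 and 75.07 for testis replicates 2 and 3. On the second (16.92%), epididymis replicate 3 was at -156.8, against -45.26 and -79.26 for epididymis replicates 1 and 2. Member results are given without both libraries where that matters. The macrophage gene Csf1r was high in all libraries, at 6845 to 8726 in testis, 12733 to 15375 in epididymis and 19251 to 24507 in brain. Adgre1, which encodes the F4/80 antigen of the sort, was at 100.4 to 240.2 in testis, 331 to 684 in epididymis and 42.4 to 88.3 in brain. Transcripts of antigens that the sort selected against were also found. Itgax, the CD11c gene, was at 0, 0 and 21.4 in testis, 265, 209 and 294 in epididymis and 0 in all brain libraries, and Ly6c2, a Ly6C gene, at 63.0 to 101 in testis, 0 to 32.3 in epididymis and 6.22 to 46.8 in brain. The microglial gene Tmem119 was at 172 to 349.9 in testis, 1324 to 1567 in epididymis and 2876 to 3479 in brain, so the brain libraries carried the marker that their title implies. Summed over 19 immediate early and stress genes, which tissue digestion is known to switch on, libraries held 174940 to 190429 in testis, 61249 to 62242 in epididymis and 74464 to 121636 in brain.

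The cyclooxygenase 1 gene Ptgs1 and the synthase genes Hpgds and Tbxas1 were lower in testis macrophages than in macrophages of both other organs. The 5-lipoxygenase gene Alox5 was near 0 in epididymis and present in testis and brain, FLAP (Alox5ap) was higher in testis than in epididymis, and Ltc4s was lower in testis than in brain. Of the 10 members, 2 rose and 3 fell in testis relative to epididymis, where limma called 4.39% of the 11766 genes tested at an adjusted p below 0.05 (2.49% higher and 1.9% lower). Relative to brain, no member rose in testis and 4 fell (7 members were at an unadjusted p below 0.05, as were 23.4% of all genes, edgeR called none higher, and DESeq2 called Ptgs2 higher), where 11.7% of genes were called (6.82% higher and 4.83% lower). Between epididymis and brain, no member rose and 1 fell, Alox5, where 4.79% of genes were called (2.99% higher and 1.8% lower). In that comparison 5 members were at an unadjusted p below 0.05, as were 16.4% of all genes, edgeR called none higher, and DESeq2 called Ptgs2 higher. The members' median log2 fold was 0.024 for testis over epididymis, -0.46 for testis over brain and -0.54 for epididymis over brain, against 0.0996, -0.0724 and -0.126 over all genes tested. The comparisons share libraries, so their folds are not independent of one another. Because the members were chosen with earlier results of these data known, their counts beside the shares of all genes are a description only. In these bulk libraries fewer cells of a type and less RNA per cell cannot be told apart.

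**Figure D1:**
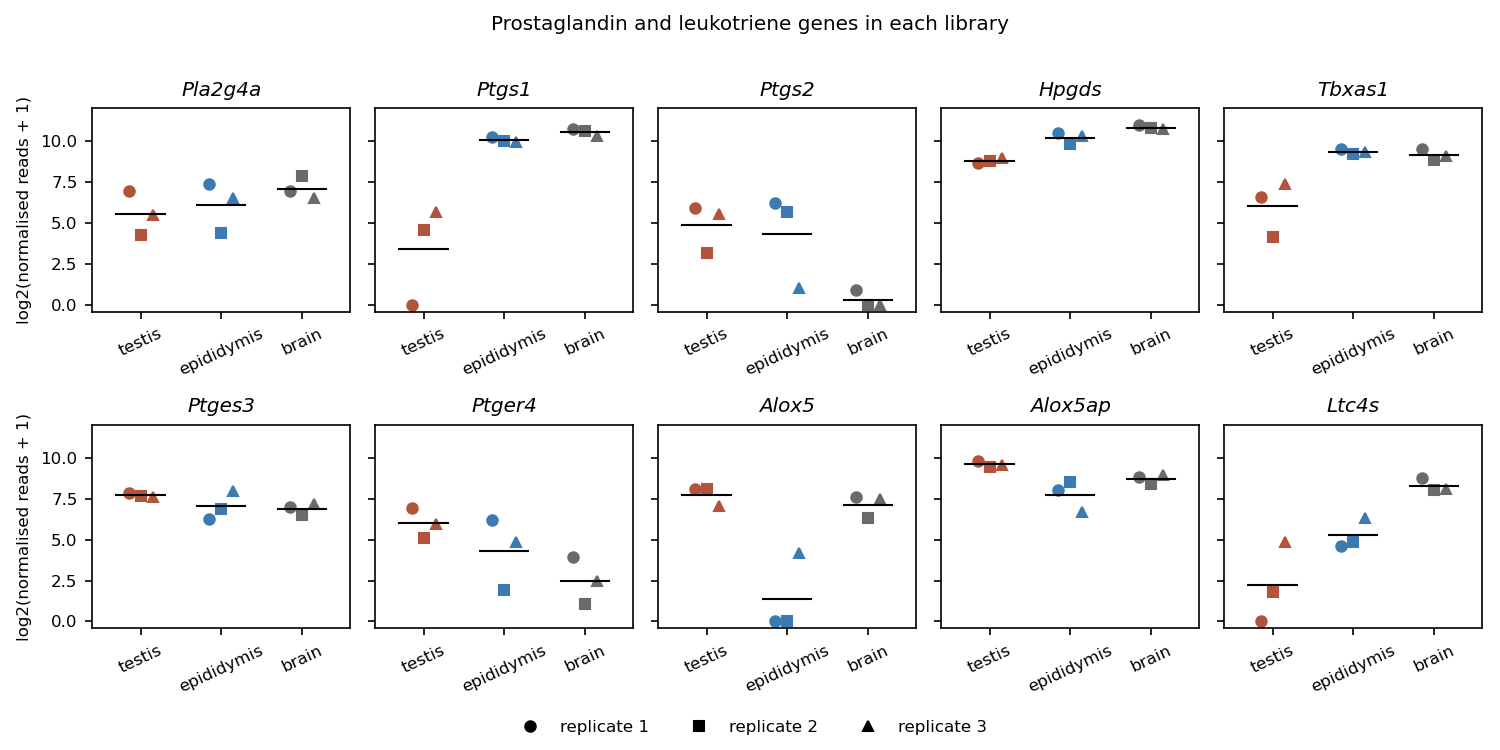
Each panel plots log2(normalised reads + 1) of 1 gene, with 1 point per library, a horizontal bar at the mean of the 3 libraries of an organ and the organs from left to right as testis, epididymis and brain. Ptgs1, Hpgds and Tbxas1 are low in testis, Alox5 is low in epididymis, and Ptgs2 is near 0 in brain.

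The start regions of the 4 members that fell in testis relative to brain are shown, with that of Ptgs2, which did not fall there, for contrast. Of the 4, Ltc4s was not called for testis over epididymis, and the others were called lower there too. Each is the RefSeq window from 250 bases before to 50 after the annotated start in GRCm38.p6, 5′ to 3′ on the gene's strand. Capitals mark GAGGAAG (or CTTCCTC, the same letters on the other strand), a form of the motif bound by PU.1, a transcription factor of the myeloid lineage. In Ptgs2 they mark TTGCGCAA, a C/EBP motif, and the CRE core ACGTCA, whose last 2 letters are the first of the E-box CACGTG. The windows are Ptgs1 (chr2:36230176-36230475, plus strand), Hpgds (chr6:65144681-65144980, minus strand), Tbxas1 (chr6:38918736-38919035, plus strand), Ltc4s (chr11:50238483-50238782, minus strand) and Ptgs2 (chr1:150099781-150100080, plus strand).
Ptgs1: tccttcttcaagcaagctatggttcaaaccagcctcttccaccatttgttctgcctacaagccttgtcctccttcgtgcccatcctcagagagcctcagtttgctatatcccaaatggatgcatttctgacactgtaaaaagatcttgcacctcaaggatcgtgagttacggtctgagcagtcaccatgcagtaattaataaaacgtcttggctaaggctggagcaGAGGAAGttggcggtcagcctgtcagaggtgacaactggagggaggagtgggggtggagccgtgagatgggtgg
Hpgds: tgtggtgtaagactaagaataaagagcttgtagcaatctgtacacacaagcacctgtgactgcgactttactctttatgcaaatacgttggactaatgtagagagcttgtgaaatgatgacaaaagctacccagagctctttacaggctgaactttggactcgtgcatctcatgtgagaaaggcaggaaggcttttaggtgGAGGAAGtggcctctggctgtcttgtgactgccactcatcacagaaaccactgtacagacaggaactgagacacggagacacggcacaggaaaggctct
Tbxas1: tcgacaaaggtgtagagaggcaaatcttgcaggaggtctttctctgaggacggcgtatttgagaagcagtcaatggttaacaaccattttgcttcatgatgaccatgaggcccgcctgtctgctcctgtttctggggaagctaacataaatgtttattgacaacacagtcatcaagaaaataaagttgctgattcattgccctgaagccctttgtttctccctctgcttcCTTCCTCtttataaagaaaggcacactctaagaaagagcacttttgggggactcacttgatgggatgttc
Ltc4s: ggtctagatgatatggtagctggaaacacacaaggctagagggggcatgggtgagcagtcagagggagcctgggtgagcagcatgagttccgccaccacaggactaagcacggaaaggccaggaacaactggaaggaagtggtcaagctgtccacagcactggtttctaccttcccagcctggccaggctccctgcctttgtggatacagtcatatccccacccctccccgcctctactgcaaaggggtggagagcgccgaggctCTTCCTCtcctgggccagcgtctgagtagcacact
Ptgs2: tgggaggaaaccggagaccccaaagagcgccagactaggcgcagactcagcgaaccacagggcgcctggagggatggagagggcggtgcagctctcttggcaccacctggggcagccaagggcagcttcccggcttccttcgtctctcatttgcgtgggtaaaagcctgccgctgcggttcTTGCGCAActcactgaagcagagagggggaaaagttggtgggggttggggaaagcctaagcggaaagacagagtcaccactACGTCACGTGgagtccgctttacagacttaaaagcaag
The GAGGAAG letters begin at position -24 from the start in Ptgs1, -49 in Hpgds, -20 in Tbxas1 and 15 in Ltc4s. RefSeq windows matched 9 of the 10 members, and 4 of the 9 held this motif, against 13.6% of all 32851 windows. The 5 matched members without GAGGAAG, Pla2g4a, Ptgs2, Ptges3, Alox5 and Ptger4, include Alox5, which was called higher in testis than in epididymis. The windows of Ptgs2 and Alox5 do hold its shorter form GAGGAA, so they lack the motif only by its last letter. Other motifs searched on both strands were TTGCNNAA (C/EBP, in 10.8% of all windows, and in Ptgs2 and Hpgds), ACGTCA (CRE core, 7.51%, in Ptgs2) and CACGTG (E-box, 7.15%, in Ptgs2). The rest were TGANTCA (AP-1, 7.81%, in Tbxas1), an NF-kB motif (20.7%, in Alox5 and Ptges3) and TATAAA (a core promoter motif, 13.6%, in Pla2g4a and Tbxas1). The motifs were chosen with the members' results known, and a match describes letters and not binding. The Tbxas1 window lies inside the GENCODE gene, downstream of its first annotated base.

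Pla2g4a, the gene of the cytosolic phospholipase A2 that frees arachidonic acid (chr1:149829618-149961290, minus strand), passed the test in no comparison. It stood at 126, 18.6 and 43.6 in testis, 169, 19.7 and 90.6 in epididymis and 121, 239 and 89.8 in brain. Values spread widely within each organ, and all 3 ranges overlap. The log2 fold was -0.51 for testis over epididymis (95% interval -2.40 to 1.38), -1.53 for testis over brain (-3.42 to 0.37) and -1.01 for epididymis over brain (-2.91 to 0.88), from limma. Its direction between testis and epididymis turned without testis replicate 2 (0.14) or epididymis replicate 1 (0.14). Ptgs2 lies 138.7 kb from it on chromosome 1.

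Ptgs1, the gene of cyclooxygenase 1 (chr2:36230426-36252272, plus strand), had the largest fold of any member in testis over brain, and in testis over epididymis a fold about as large as that of Alox5, which exceeded it in size in some settings (6.15 against -4.94 without testis replicate 1). It stood at 0, 23.4 and 49.6 in testis, 1234, 1019 and 1003 in epididymis and 1722, 1556 and 1258 in brain. The ranges of the 3 organs do not overlap, with testis lowest and brain highest. Testis averaged 24.3 ± 24.8, against 1085 ± 129 in epididymis and 1512 ± 235 in brain (SD, n = 3 each). The log2 fold was -6.65 for testis over epididymis (SE 0.95, limma adjusted p = 0.00090). For testis over brain it was -7.13 (SE 0.95, limma adjusted p = 0.00012). Without testis replicate 1 and epididymis replicate 3 the folds were -5.00 (limma adjusted p = 0.00052) and -5.42 (4.12e-05). Between epididymis and brain the fold was -0.47 with a 95% interval from -2.50 to 1.55, which did not pass.

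Ptgs2, the gene of the inducible cyclooxygenase 2 (chr1:150100031-150108227, plus strand), showed another order. It stood at 60.05, 8.08 and 45.3 in testis, 73.6, 50.7 and 1.08 in epididymis and 0.911, 0 and 0 in brain. Testis and epididymis ranges overlap, and both lie above brain, where 1 read was found in the 3 libraries together. By reads, 121 in testis against that 1 read give a ratio of 112 (exact 95% interval 19.7 to 4456), and 136 in epididymis give 137 (24.2 to 5457). These intervals cover counting error only, and libraries of 1 organ differed by more. The limma test did not pass, with a log2 fold of 4.57 for testis over brain (SE 1.66, adjusted p = 0.097) and 4.01 for epididymis over brain (SE 1.66, adjusted p = 0.23). DESeq2 on the recovered reads called both (adjusted p = 0.0057 and 0.0076), and limma called testis over brain without epididymis replicate 3 (adjusted p = 0.047). Between testis and epididymis the log2 fold was 0.56 (95% interval -2.98 to 4.10), and its sign depended on the setting. Ptgs2 is itself an immediate early gene in many cells, and the summed immediate early and stress genes were highest in testis, while epididymis lay below brain. The part of that response in the values of Ptgs2 was not tested.

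Taken per kb of exon, so that the genes can be set side by side, Ptgs2 gave 100%, 18.2% and 37.0% of the reads of both cyclooxygenases in the 3 testis libraries. It gave 3.70%, 3.10% and 0.0692% in epididymis and 0.0340%, 0% and 0% in brain. The testis shares lie above those of both other organs, but rest on few reads. Testis replicate 1 had 58 Ptgs2 reads and no Ptgs1 read (95% interval of the share 90.7% to 100%), replicate 2 had 10 and 29 (8.80% to 31.9%), and replicate 3 had 53 and 58 (28.4% to 46.5%). Ptgs1 had at least 930 reads in every epididymis and brain library. The 0% of brain replicates 2 and 3 has upper 95% limits of 0.170% and 0.168% per kb. Ptgs2 averaged 37.8 ± 26.8 in testis and 41.8 ± 37.1 in epididymis (SD, n = 3 each).

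**Figure D2:**
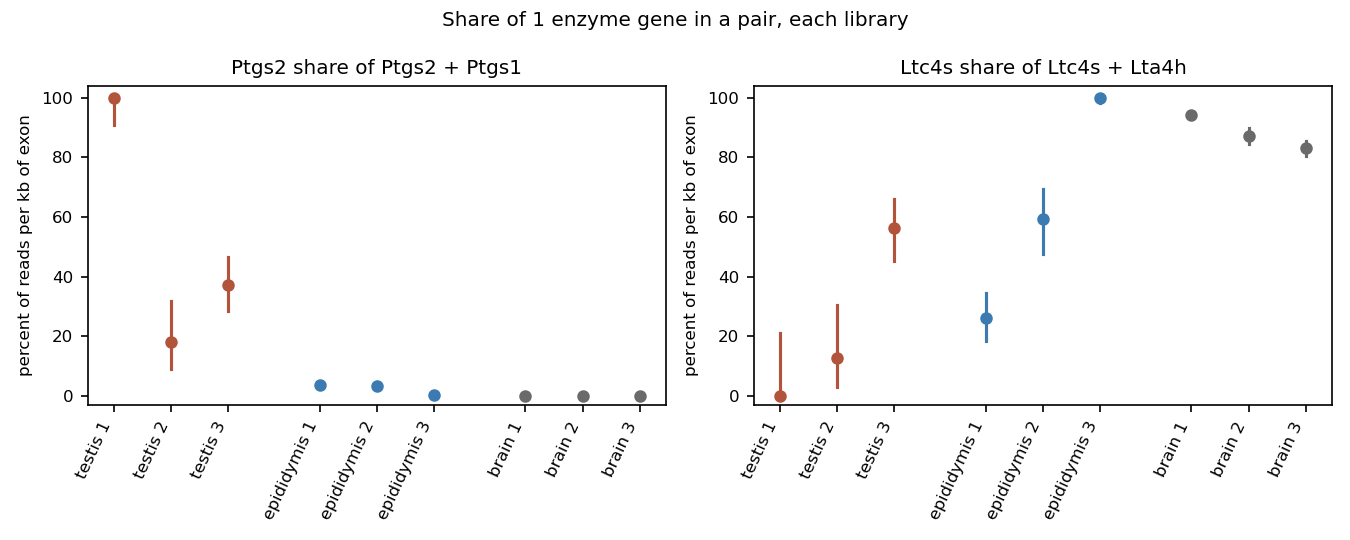
The 2 panels plot, for each library, the share in percent of Ptgs2 in the reads per kb of Ptgs2 and Ptgs1, and of Ltc4s in those of Ltc4s and Lta4h, with exact 95% binomial intervals that cover counting error only. The Ptgs2 share is 18.2% to 100% in testis and below 4% in the other organs, and the Ltc4s share is 83.2% or more in brain.

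Among the terminal synthases, Hpgds (chr6:65117293-65144908, minus strand), the haematopoietic prostaglandin D synthase, had the smallest standard error of the members. It stood at 409, 446 and 501 in testis, 1458, 909.8 and 1290.5 in epididymis and 2005, 1769 and 1691 in brain. The ranges do not overlap, with testis lowest and brain highest. The log2 fold was -1.41 for testis over epididymis (SE 0.23, limma adjusted p = 0.0020) and -2.01 for testis over brain (SE 0.23, limma adjusted p = 2.28e-05). Without testis replicate 1 and epididymis replicate 3 these were -1.28 (limma adjusted p = 0.049) and -1.94 (0.0011). Epididymis over brain gave -0.60 (SE 0.23, limma adjusted p = 0.17), which did not pass although the values lie apart.

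Tbxas1, the thromboxane A synthase gene (chr6:38875404-39084585, plus strand), stood at 95.2, 17.0 and 165 in testis, 735, 605 and 651 in epididymis and 731, 458 and 545 in brain. Testis lies below both other organs, whose ranges overlap. Its log2 fold was -3.33 for testis over epididymis (SE 0.59, limma adjusted p = 0.0039) and -3.11 for testis over brain (SE 0.59, limma adjusted p = 0.0023). The first call was lost when testis replicate 1 and epididymis replicate 3 were left out (-3.61, limma adjusted p = 0.058), and the second was kept (-3.38, 0.018). Epididymis over brain gave 0.22 (95% interval -1.03 to 1.47). Platelets also make thromboxane. The 6 platelet genes in the table summed to 0 to 85.5 in testis, 2.81 to 58.2 in epididymis and 96.9 to 137 in brain, and their part in Tbxas1 was not tested. Gp9 was at 0 in all testis and epididymis libraries and at 24.0 to 59.1 in brain, and Itga2b at 0 in testis, 0 to 1.08 in epididymis and 9.11 to 25.8 in brain, while the highest Gp6 value was in testis replicate 3 (62.4).

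Ptges3, the cytosolic prostaglandin E synthase (chr10:128058954-128077272, plus strand), is also known as p23, a co-chaperone of HSP90. It stood at 225, 201 and 194 in testis, 76.4, 118 and 246 in epididymis and 127, 89.2 and 145 in brain. Testis lies above brain without overlap, and epididymis spans both. No comparison passed, with log2 folds of 0.66 for testis over epididymis (95% interval -0.39 to 1.70), 0.80 for testis over brain (-0.24 to 1.85) and 0.15 for epididymis over brain (-0.90 to 1.19). GENCODE lists 1 pseudogene named after it, so shared reads are possible. The inducible prostaglandin E synthase Ptges, which stands between the cyclooxygenases and the receptor Ptger4, was not called either. It stood at 30.02, 30.7 and 17.1 in testis, 0, 31.0 and 0 in epididymis and 0, 0 and 4.44 in brain. Testis lies above brain, and epididymis replicate 2 reached the testis values.

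Ptger4, the prostaglandin E2 receptor EP4 (chr15:5206661-5244187, minus strand), stood at 121, 33.9 and 60.7 in testis, 71.8, 2.81 and 28.0 in epididymis and 14.6, 1.11 and 4.44 in brain. Testis lies above brain, and epididymis overlaps both. No comparison passed, with a log2 fold of 1.68 for testis over epididymis (95% interval -1.48 to 4.83), 3.51 for testis over brain (0.35 to 6.66) and 1.83 for epididymis over brain (-1.33 to 4.99). The unadjusted interval for testis over brain lies above 0, and the limma adjusted p was 0.16.

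In the leukotriene arm, Alox5, the gene of 5-lipoxygenase (chr6:116410077-116461178, minus strand), was high in testis and low in epididymis. It stood at 272, 267 and 129 in testis, 0, 0 and 17.2 in epididymis and 193, 79.1 and 174 in brain. Epididymis lies below both other organs, whose ranges overlap, and its 16 reads came from replicate 3. Testis averaged 223 ± 81.1, against 5.75 ± 9.96 in epididymis and 149 ± 61.1 in brain (SD, n = 3 each). The log2 fold was 6.33 for testis over epididymis (SE 1.16, limma adjusted p = 0.0051) and -5.73 for epididymis over brain (SE 1.16, limma adjusted p = 0.0088). Without testis replicate 1 and epididymis replicate 3 these were 7.54 (limma adjusted p = 0.013) and -7.13 (0.0049). The epididymis over brain call was lost without brain replicate 1 (limma adjusted p = 0.066) or brain replicate 3 (0.052). With the 6 libraries of 2 organs alone, neither call held, with limma adjusted p = 0.085 for testis over epididymis and 0.087 for epididymis over brain. Testis over brain gave 0.60 (95% interval -1.87 to 3.08).

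Alox5ap encodes FLAP, which presents arachidonic acid to 5-lipoxygenase (chr5:149264767-149288153, plus strand). It stood at 904, 687 and 754 in testis, 259, 365 and 102 in epididymis and 451, 333 and 489 in brain. Testis lies above both other organs, whose ranges overlap. Its log2 fold was 1.86 for testis over epididymis (SE 0.39, limma adjusted p = 0.0135). That call was lost without testis replicate 1 (limma adjusted p = 0.060), and without this library and epididymis replicate 3 together the fold was 1.22 (limma adjusted p = 0.089). Testis over brain gave 0.89 (SE 0.39, limma adjusted p = 0.18), or an adjusted p of 0.047 without epididymis replicate 3. Epididymis over brain gave -0.97 (95% interval -1.81 to -0.13, limma adjusted p = 0.21), which did not pass.

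Ltc4s, the leukotriene C4 synthase gene (chr11:50236461-50238616, minus strand), ran in another order than Alox5 and Alox5ap. It stood at 0, 2.42 and 28.2 in testis, 23.6, 28.1 and 79.8 in epididymis and 427, 255 and 274 in brain. Brain lies above both other organs, whose ranges overlap. Testis over brain gave a log2 fold of -6.07 (SE 1.22, limma adjusted p = 0.0036), and -4.96 without testis replicate 1 and epididymis replicate 3 (limma adjusted p = 0.0095). Epididymis over brain gave -3.01 (SE 1.22, limma adjusted p = 0.22), which did not pass, although DESeq2 (adjusted p = 0.048) and limma on the 6 libraries of these organs (adjusted p = 0.037) called it. Testis over epididymis gave -3.06 (95% interval -5.65 to -0.46, limma adjusted p = 0.20).

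Leukotriene A4 stands between Alox5 and Ltc4s, and Lta4h encodes the hydrolase that competes for it. Lta4h stood at 46.6, 52.5 and 68.4 in testis, 210.001, 60.03 and 0 in epididymis and 79.2, 115 and 172 in brain, and no comparison called it. Per kb of exon, Ltc4s gave 0%, 12.6% and 56.2% of the reads of both genes in testis, 25.9%, 59.3% and 100% in epididymis and 94.4%, 87.4% and 83.2% in brain. The brain shares lie together, while testis and epididymis libraries span most of the scale. In testis the shares rest on 0, 3 and 33 Ltc4s reads.

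**Figure D3:**
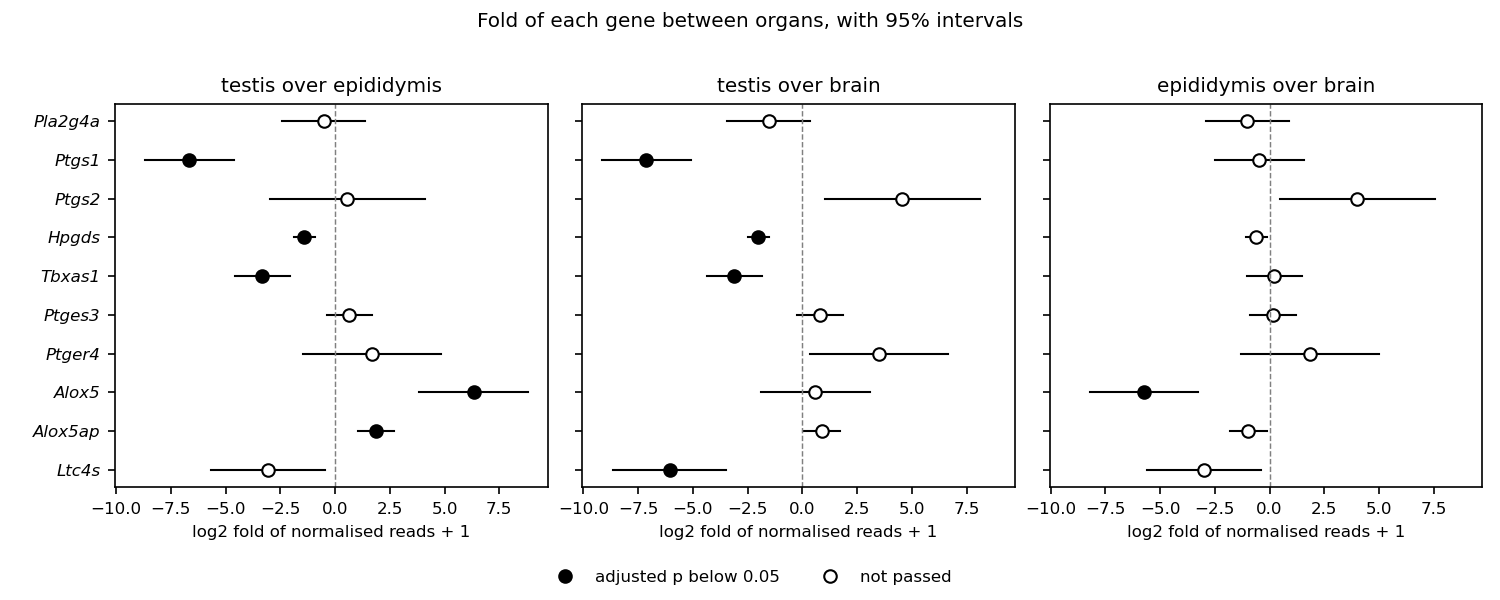
For each gene (rows) and comparison (panels) the point is the log2 fold of normalised reads + 1 and the line its unadjusted 95% interval from limma, with filled points at an adjusted p below 0.05. Filled points are 5 for testis over epididymis, 4 for testis over brain and 1 for epididymis over brain.

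By range alone, 2 members lay wholly higher (Alox5 and Alox5ap) and 3 wholly lower (Ptgs1, Hpgds and Tbxas1) in testis than in epididymis, where 19.8% of all genes tested lay apart (11% higher and 8.8% lower). Between testis and brain, 4 lay higher (Ptgs2, Ptges3, Alox5ap and Ptger4) and 4 lower (Ptgs1, Hpgds, Tbxas1 and Ltc4s), where 30.8% of genes lay apart (15.9% and 14.9%). Between epididymis and brain, 1 lay higher (Ptgs2) and 4 lower (Ptgs1, Hpgds, Alox5 and Ltc4s), where 22% of genes lay apart (10.5% and 11.5%). Ptgs2, Ptges3, Ptger4 and Alox5ap were thus above brain in all testis libraries without passing the limma test.

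Levels per kb of exon describe which member's transcripts had the most reads for their length within an organ, and do not measure a step of the pathway. In testis, Alox5ap led with 581 normalised reads per kb, followed by Hpgds with 130.02 and Ptges3 with 103.3, while Ptgs1 and Ptgs2 were lowest of the 10 with 8.49 each. Of these, Ptgs1 was the higher in testis replicates 2 and 3 and had no read in replicate 1. In epididymis, Ptgs1 led with 378, followed by Hpgds with 351 and Tbxas1 with 214, and Alox5 was last with 2.04. In brain, Ptgs1 (527) and Hpgds (524) led, Ltc4s followed with 489, and Ptgs2 was last with 0.0682. Hpgds was thus second in each organ by its mean. Exon length was taken from the merged exons of protein-coding transcripts in the basic GENCODE set, and the transcripts these cells use are unknown.

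Of 62 symbols listed for other genes of the pathway, 48 were in the table and 38 were tested. In testis relative to epididymis, none rose and 2 fell (5.26%, against 4.39% of all genes), with 10 at an unadjusted p below 0.05 in limma (26.3%, against 17.5% of all genes). edgeR called 0 higher and 1 lower, and DESeq2 2 and 2. Relative to brain 1 rose and 3 fell in testis (10.5%, against 11.7%), with 13 at an unadjusted p below 0.05 (34.2%, against 23.4%), and edgeR called 2 and 3 and DESeq2 3 and 4. In epididymis relative to brain none rose and 2 fell (5.26%, against 4.79%), with 9 at an unadjusted p below 0.05 (23.7%, against 16.4%), and edgeR called 0 and 2 and DESeq2 4 and 3. The shares called by limma are near those of all genes. The limma calls fell among genes of fatty acid release, apart from the prostaglandin D synthase Ptgds. In no comparison did limma as described call any of the 5 tested genes of prostaglandin transport and breakdown. Nor did it call the 2 other prostanoid receptors, the 2 other lipoxygenases or the 3 leukotriene and lipoxin receptors. The 9 other genes listed for the leukotriene arm (enzymes, exporters and Cotl1) were not called either. Of these 21 genes, 4 were at an unadjusted p below 0.05 in testis over epididymis (19%), 6 in testis over brain (28.6%) and 5 in epididymis over brain (23.8%), against the 17.5%, 23.4% and 16.4% of all genes. DESeq2 called Dpep2 higher in testis than in epididymis, Cyp4f18 higher in testis than in brain, and Cotl1, Cyp4f18 and Cysltr1 higher in epididymis than in brain. Other settings of limma called Alox12 or Cyp4f16 or Cyp4f18 in testis over brain, and Cotl1, Cyp4f18 or Cysltr1 in epididymis over brain. These 6 genes are named after their values were seen.

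Pla2g15, the lysosomal phospholipase A2, stood at 129, 208 and 232 in testis, 1144, 534 and 868 in epididymis and 862, 529 and 919 in brain. Its log2 fold was -2.13 for testis over epididymis (SE 0.34, limma adjusted p = 0.0020) and -2.02 for testis over brain (SE 0.34, limma adjusted p = 0.0010). Pla2g12a, a secreted phospholipase A2, stood at 0, 13.7 and 2.56 in testis, 208, 58.2 and 132 in epididymis and 29.1, 45.7 and 57.8 in brain, with a log2 fold of -4.98 for testis over epididymis (SE 1.28, limma adjusted p = 0.039). Testis lies below both other organs for both genes. Without testis replicate 1 and epididymis replicate 3 neither gene was called for testis over epididymis, and Pla2g12a also lost its call when any 1 library other than testis replicate 2 was left out.

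Mgll, the monoacylglycerol lipase, known as a source of arachidonic acid in the brain, stood at 70.4, 89.7 and 36.8 in testis, 164, 151 and 8.62 in epididymis and 735, 911 and 858 in brain. Its log2 fold was -3.73 for testis over brain (SE 0.83, limma adjusted p = 0.0077) and -3.74 for epididymis over brain (SE 0.83, limma adjusted p = 0.015). Daglb, the diacylglycerol lipase that acts before Mgll, stood at 180.1, 454 and 208 in testis, 412, 510.3 and 391 in epididymis and 1076, 891 and 1255 in brain. Its log2 fold was -2.04 for testis over brain (SE 0.33, limma adjusted p = 0.00067) and -1.29 for epididymis over brain (SE 0.33, limma adjusted p = 0.037). Both genes of this route were higher in every brain library than in any library of the other organs. Neither was called for epididymis over brain when any 1 brain library was left out, and Daglb also lost that call without any 1 epididymis library, while both kept their calls for testis over brain leaving out any 1 library.

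Ptgds, the lipocalin-type prostaglandin D synthase, is the second enzyme that makes prostaglandin D2. It stood at 67.3, 122 and 211 in testis and 0, 55.3 and 0 in epididymis, with no read in any brain library. With 3 reads per library as the floor, testis was at least 47.6-fold higher than brain (limma adjusted p = 0.014), a call lost when any 1 brain library was left out. Testis over epididymis did not pass (log2 fold 4.98, 95% interval 1.38 to 8.59, limma adjusted p = 0.13), but was called without epididymis replicate 2. The direction is opposite to that of Hpgds. Sertoli, germ and Leydig cells of the testis are known to express Ptgds. The 6 Leydig cell genes in the table summed to 1279 to 3186 in testis, 29.1 to 201 in epididymis and 75.8 to 105 in brain. The 7 Sertoli and germ cell genes summed to 599 to 1654 in testis, 603 to 815 in epididymis and 81.1 to 111 in brain. The part of these cells in Ptgds was not tested.

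Transcripts of other leukocytes that use this pathway also differed between the organs. The 6 monocyte genes in the table summed to 1543 to 2129 in testis, 46.4 to 314 in epididymis and 108 to 233 in brain, and 7 T and NK cell genes to 627 to 949, 79.1 to 143 and 56.5 to 154. Of the monocyte genes, 1 of 5 tested rose in testis over epididymis (Ccr2), and 2 over brain (Ccr2 and F13a1). Monocytes are known to express Alox5 and Alox5ap, and their part in those values was not tested. The 7 neutrophil genes summed to 153 to 256 in testis, 190.4 to 405 in epididymis and 478 to 754 in brain, with 5 of the 7 at 0 in all testis libraries, S100a8 and S100a9 among them. Cxcr2 gave most of the testis sum and ran the other way, at 144 to 256 in testis, 113 to 254 in epididymis and 72.5 to 109 in brain. Of 11 mast cell and basophil genes listed, Kit and Hdc were in the table and summed to 68.7 to 108 in testis, 0 to 21.8 in epididymis and 0 to 20.4 in brain. Kit was at 73.5, 67.9 and 81.2 in testis, 0 in all epididymis libraries and 0, 0 and 9.78 in brain, and Leydig cells express it too. Mast cells are known for Hpgds, Alox5 and Ltc4s, of which Alox5 had its highest mean in testis and Hpgds and Ltc4s their lowest, and the part of mast cells was not tested. The 5 eosinophil genes in the table were too low to be tested. Genes of macrophages and microglia summed to 10680 to 13406 in testis, 20591 to 24293 in epididymis and 36139 to 39311 in brain. This is the order of the means of Ptgs1, Hpgds and Ltc4s, and also of Pla2g4a, whose ranges overlap. It was not tested as a source of their values. Csf1r was the largest part of each sum, and not all genes of the list ran this way. Of the 10 tested, 0 rose and 4 fell in testis over epididymis. In testis over brain 1 rose (Ptprc) and 6 fell, and in epididymis over brain 2 rose (Adgre1 and Ptprc) and 5 fell. Of 19 immediate early and stress genes, 15 rose in testis over epididymis and 11 over brain. None was lower in either by limma, edgeR or DESeq2, with 0 and 1 lower at an unadjusted p below 0.05, and in epididymis over brain 1 rose and 4 fell.

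**Figure D4:**
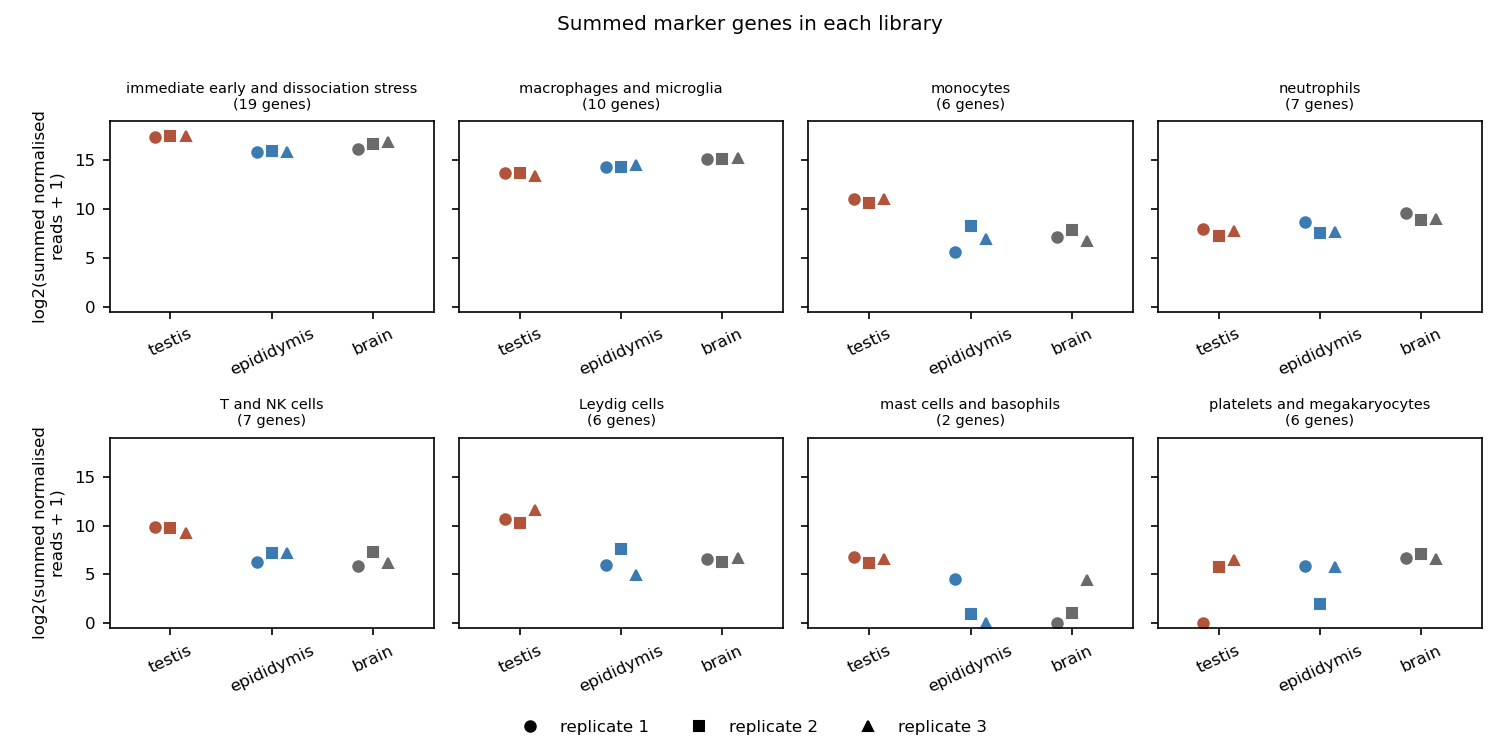
Each panel plots log2 of the summed normalised reads + 1 of a list of marker genes, with 1 point per library and testis, epididymis and brain from left to right. Monocyte, T and NK cell, Leydig cell and immediate early sums are highest in testis, and the macrophage and microglia sum is highest in brain.

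Genes whose values ran most like those of Ptgs1 over the 9 libraries were Ttc28 (Pearson's r = 0.992), Ctsd, the lysosomal protease cathepsin D (0.978), and Plekhb2 (0.9753). Ttc28 stood at 17.6, 87.2 and 98.3 in testis, 619, 453 and 396 in epididymis and 484, 700.04 and 476 in brain. Ctsd stood at 40.4, 98.6 and 243 in testis, 1265, 1146 and 958 in epididymis and 1974, 1936 and 2169 in brain. As for Ptgs1, testis replicate 1 was the lowest library for both. Most like Alox5 were Gstp1, a glutathione transferase (0.982), Adnp2 (0.972) and Esco2, which acetylates cohesin (0.971). Gstp1 stood at 58.0, 158 and 57.3 in testis, 0, 0.938 and 10.8 in epididymis and 53.7, 29.0 and 71.1 in brain. The points share libraries and fall into organs, so the r values are a description over 9 libraries.

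Exons of opposite-strand transcripts overlap those of Ptgs1 (Gm43621), Tbxas1 (Gm42962), Alox5ap (Gm19719) and Ltc4s (Gm26542) in the annotation. The library kit does not mark the strand, so reads of the partners cannot be told apart, and these values carry that uncertainty. None of the 4 partners has a row in the table.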

How the data were processed

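Macrophages sorted from testis, epididymis and brain were sequenced, with libraries made from 10 ng of RNA with the TruSeq RNA kit version 2 after 40 min of digestion, per the labels' protocols. The signal values in the deposited table are reads per gene divided by 1 factor per library, as the values themselves show. CASAVA 1.8, Bowtie2 2.2.1, Partek 6.6, DESeq2 and the genome mm10 are listed per the submitters' processing notes, and how reads were counted is not given in the sources used here. Dividing a library's values by its smallest gave whole numbers for 100% of them, within 1e-06 reads, and these were taken as recovered reads.

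The scale was log2(value + 1), on which the fold of a low gene depends on the added 1 and on libraries at 0. It can be larger or smaller than the fold from a count model. For Ptgs1 in testis over epididymis the log2 fold was -6.65 by limma, against -5.43 by edgeR and -5.47 by DESeq2. The fit, over the 11766 genes that reached a value of 10 in 3 or more libraries, was made with limma 3.58.1 in R 4.3.3, with 1 mean per organ over all 9 libraries and variances that follow the mean (6 residual and 9.08 prior degrees of freedom). P-values were adjusted by the Benjamini-Hochberg method over all of them and called below 0.05, and all 10 members were tested. edgeR 4.0.16 and DESeq2 1.42.0 on the recovered reads were alternatives, as were other pseudocounts, filters and scalings and leaving out libraries. The edgeR common biological coefficient of variation was 0.913. Shares of reads carry exact Clopper-Pearson 95% intervals, converted to reads per kb, and folds against an organ with no read used a floor of 3 reads per library.

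Gene coordinates and exon lengths come from GENCODE M21 (GRCm38, the same assembly as mm10). The members, gene lists and motifs were chosen with earlier results of these data known. All members are named, as are other pathway genes called in a comparison, uncalled ones that join 2 members, and, for the called member with the largest fold, the 3 genes most like it. The procedure was tested on simulated data.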

Additional observations from a re-analysis of the deposited data

How the results depend on the processing

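No paired analysis was possible because the labels give no replicate number that links libraries of different organs. Members called for testis over epididymis numbered 5, against 1 with no trend of the variance on the mean (Alox5), 2 with the 2 organs alone (Hpgds and Ptgs1), 3 without testis replicate 1 and epididymis replicate 3, an alternative chosen after seeing the data, and 4 to 5 leaving out 1 library. For testis over brain 4 were called, and 4 to 6 leaving out 1 library. For epididymis over brain 1 was called, against 3 by DESeq2 (Alox5, Ltc4s and Ptgs2), and 0 to 1 leaving out 1 library. Without the trend, limma gave an adjusted p of 0.055 for Ptgs1, 0.106 for Hpgds, 0.092 for Tbxas1 and 0.152 for Alox5ap in testis over epididymis, and 0.054 for Tbxas1 in testis over brain. With the 2 organs alone it was 0.061 for Tbxas1 and 0.078 for Alox5ap in testis over epididymis, and Alox5ap was called for testis over brain (0.042). Over all genes, 516 were called for testis over epididymis, against 192 with no trend, 250 with the 2 organs alone, 782 by DESeq2, 198 without those 2 libraries and 278 to 442 leaving out 1 (278 without epididymis replicate 2, 293 without epididymis replicate 3, 301 without testis replicate 2). For testis over brain 1371 were called, against 837 with no trend and 827 to 1457 leaving out 1 library (827 and 889 without brain replicates 1 and 2). For epididymis over brain 564 were called, against 306 with no trend, 904 by DESeq2 and 320 to 597 leaving out 1 (320 and 327 without brain replicates 1 and 2). The Ptgs2 fold for testis over epididymis (0.56) turned to -0.57 with quantile normalization, -0.16 with edgeR, -0.15 with DESeq2 and -1.60 without those 2 libraries, and ranged from -1.07 (without epididymis replicate 3) to 1.51 leaving out 1. That of Pla2g4a (-0.51) ranged from -1.38 to 0.14 leaving out 1. That of Ptges3 for epididymis over brain (0.15) turned to -0.31 without those 2 libraries, and ranged from -0.31 (without epididymis replicate 3) to 0.53 leaving out 1, with -0.05 without brain replicate 2. Scaling libraries to the same total moved the median log2 fold of all genes to -0.0512 for testis over epididymis and -0.292 for testis over brain. The split of calls then was 227 higher and 307 lower, against 293 and 223, and 654 higher and 772 lower, against 803 and 568. Quantile normalization gave 223 higher and 256 lower for testis over epididymis. Each called member kept its call and direction under both scalings. The causes of these shifts were not tested, and depth limits what can be said of Ptgs2 in brain and of Ltc4s, Ptgs1 and Alox5 where few reads were found.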
